A study of Homo sapiens with 4 samples.

Results

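The genes described here are 41 genes of the unfolded protein response and of protein folding in the endoplasmic reticulum (ER). They were chosen by symbol, with earlier results of these data known. All 41 had a probe set of their own in a table that names 18239 genes, and all 41 passed the filter on dim genes, so they are 41 of the 14970 genes tested. MTAC-P, labelled a resistant lung cancer line that was obtained under mild tyrosine kinase inhibitor treatment, was set against PC9, an established EGFR-mutant lung adenocarcinoma line. The labels give neither the inhibitor nor its dose, do not name the parent of MTAC-P, and do not say whether drug was present at harvest or whether MTAC-P is a clone. Both lines were grown in DMEM with serum, and total RNA of each was measured on 2 arrays. Values are log2 expression, and where 2 values of a line are given they are those of replicate 1 and replicate 2. Differences are MTAC-P minus PC9 on the log2 scale.

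Of 10 lung epithelial and adenocarcinoma markers, 6 (EPCAM, CDH1, KRT7, KRT8, KRT18 and KRT19) had means above 8 in both lines. The lung lineage genes NKX2-1, NAPSA, SFTPB and SFTPC lay within 1 log2 unit of the dim value of 4.14 in both. The summed level of the 10 markers was 15.91 and 15.92 in MTAC-P, against 15.89 and 15.89 in PC9. This sum was taken on the linear scale and is set mostly by the brightest keratins. In MTAC-P and PC9 the means were 11.71 and 12.21 for EPCAM, 10.35 and 10.89 for CDH1, and 13.44 and 13.47 for KRT7. They were 13.27 and 12.91 for KRT8, 14.4 and 14.3 for KRT18, and 13.79 and 13.85 for KRT19. All 6 fibroblast markers, 3 of the 4 endothelial markers and 4 of the 5 leukocyte markers with a probe set lay within 1 log2 unit of the dim value in both lines, the exceptions being CDH5 and CD68. In bulk RNA, fewer cells of a kind and less RNA per cell cannot be told apart. The log2 gap between the 3′ and 5′ control probe sets of ACTB, a sign of RNA integrity, was 1.51 and 1.75 in MTAC-P, against 1.71 and 2.49 in PC9. The same gap for GAPDH was -0.09 and -0.07 in MTAC-P, against -0.06 and 0.04 in PC9.

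Proteins that enter the secretory pathway are folded in the ER by chaperones such as BiP, encoded by HSPA5, and by disulfide isomerases. When unfolded proteins build up, 3 sensors in the ER membrane respond. ATF6 is cut in the Golgi to release a transcription factor, IRE1 (ERN1) splices the messenger RNA of XBP1, and PERK (EIF2AK3) phosphorylates the translation factor eIF2 alpha, which lowers general translation while favouring that of ATF4. The targets of ATF6 and XBP1 include chaperones and the machinery of ER-associated degradation (ERAD), which returns misfolded proteins to the cytosol. The targets of ATF4 include DDIT3, TRIB3 and CHAC1, and other stresses reach ATF4 through other kinases of the same translation factor.

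ATF6 and its partners are known to act through the ER stress response element (ERSE), which is CCAAT and CCACG with 9 bases between them, and through ERSE-II, which is ATTGG and CCACG with 1 base between them. Both strands were searched in the promoter windows of RefSeq genes (GRCh38.p14, 250 bases before to 50 after the start of transcription), which cover 37 of the 41 genes. DERL1, DERL3, PDIA3 and SEC24D were not matched. ERSE was found in 6 of the 37 and in 27 of all 35116 windows (0.0769%), and ERSE-II in 3 of the 37 and in 19 windows (0.0541%). Some genes have several windows that overlap, so windows are not separate genes. The stretches that hold the matches are shown for the 9 genes that carry either motif. Of these, 6 had a higher mean in MTAC-P and 3 a lower one. Whether ATF6 had a part in any of these differences was not tested. Capitals mark the matches, and each stretch is written 5′ to 3′ on the strand of the gene.
SDF2L1, ERSE-II, chr22:21642099-21642139, plus strand: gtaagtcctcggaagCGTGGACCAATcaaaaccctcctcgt
HERPUD1, ERSE-II, chr16:56932010-56932050, plus strand: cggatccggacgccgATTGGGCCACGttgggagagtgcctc
HYOU1, ERSE-II at 2 positions, chr11:119057259-119057405, minus strand: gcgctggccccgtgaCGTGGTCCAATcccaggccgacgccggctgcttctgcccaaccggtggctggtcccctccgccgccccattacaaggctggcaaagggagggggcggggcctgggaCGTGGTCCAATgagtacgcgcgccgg
CALR, ERSE, chr19:12938369-12938417, plus strand: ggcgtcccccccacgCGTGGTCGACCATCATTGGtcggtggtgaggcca
HSPA5, ERSE, chr9:125241376-125241424, minus strand: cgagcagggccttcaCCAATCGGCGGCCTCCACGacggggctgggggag
CRELD2, ERSE, chr22:49918539-49918587, plus strand: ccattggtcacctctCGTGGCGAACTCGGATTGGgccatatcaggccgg
PDIA6, ERSE, chr2:10812838-10812886, minus strand: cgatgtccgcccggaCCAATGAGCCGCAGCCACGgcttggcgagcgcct
HSP90B1, ERSE at 2 positions, chr12:103930201-103930354, plus strand: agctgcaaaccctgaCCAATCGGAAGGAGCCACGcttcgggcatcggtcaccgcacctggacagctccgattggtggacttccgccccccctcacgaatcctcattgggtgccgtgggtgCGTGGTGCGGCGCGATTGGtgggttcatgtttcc
CANX, ERSE, chr5:179698763-179698811, plus strand: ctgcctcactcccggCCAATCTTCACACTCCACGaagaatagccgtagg

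Within each motif the stretches run from the most positive difference to the most negative. The 3 genes with ERSE-II had higher means in MTAC-P, by 0.83 for SDF2L1, 0.38 for HERPUD1 and 0.23 for HYOU1. The 6 genes with ERSE were split, at 0.66 for CALR, 0.28 for HSPA5, 0.04 for CRELD2, -0.20 for PDIA6, -0.25 for HSP90B1 and -0.41 for CANX. A match of the unfolded protein response element TGACGTGG was found in HYOU1, where it overlaps an ERSE-II match, and in DNAJC10, and in 256 windows in all (0.729%). The composite element of ATF4 and C/EBP factors, searched as TGATG and AAT with 1 base between them, was found in 348 windows (0.991%) and in none of the 37 genes. A match is a string of letters and was not tested as a binding site.

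The family did not move as a block. Of the 41 genes, 26 (63.4%) had a higher mean in MTAC-P, beside 53.8% of all tested genes, and their median difference was 0.04, beside 0.03 for all genes. The count of higher genes was 19 without MTAC-P replicate 2, 20 without PC9 replicate 1 and 20 with the trend with gene length removed, an alternative chosen after seeing the data. The ATF4 arm had all 7 genes above 0 and a median of 0.46. This median was 0.24 with all probe sets of a gene averaged and 0.23 without MTAC-P replicate 2. In that arm, DDIT3 (0.06), ATF3 (0.01) and CEBPB (0.18) each changed sign when 1 array was left out. The 16 chaperones and folding enzymes split evenly, with 8 higher, 8 lower and a median of -0.07, and the 9 ERAD genes had 5 higher and a median of 0.00. SDF2L1 (0.83), CALR (0.66) and CHAC1 (0.59) were the most positive, and DNAJC3 (-0.84), DNAJC10 (-0.83) and SSR1 (-0.76) the most negative.

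No gene of the 41 passed limma's adjusted p of 0.05 over all tested genes, the lowest being 0.111 (limma) for DNAJC3, and 3 of all 14970 genes passed (0.0200%). All 41 differed by less than 1 log2 unit. An unadjusted limma p under 0.05 was reached by 9 of the 41, beside 18.9% of all genes. They were 4 genes higher in MTAC-P, beside 7.76% of all genes, and 5 lower, beside 11.1%. MTAC-P and PC9 arrays were fully apart for 24 of the 41 (58.5%), beside 53.2% of all genes. Of these, 12 lay higher in MTAC-P, where the share over all genes was 28.3%, and 12 lower, where it was 24.9%. Means at least 1.5-fold apart were found for 6 of the 41, beside 11.9% of all genes. These shares lie near those of all genes, so the counts only describe the 41.

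**Figure D1:**
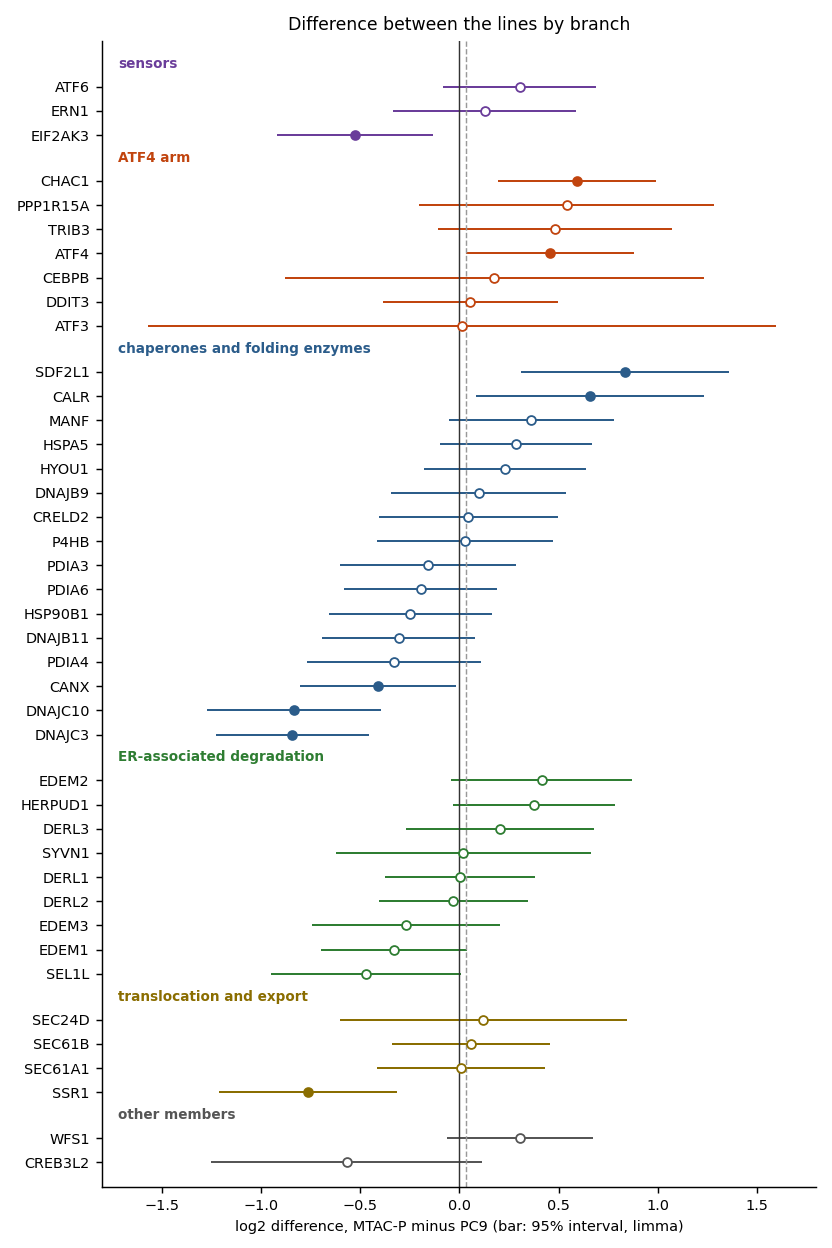
Log2 difference (MTAC-P minus PC9, horizontal axis) of each of the 41 genes with its 95% interval from limma, grouped by branch, with filled points where the unadjusted p is under 0.05 and a dashed line at the median of all tested genes, 0.03. The 7 genes of the ATF4 arm all lie above 0, but in that arm only the intervals of ATF4 and CHAC1 leave out 0. The 16 chaperones and folding enzymes run from 0.83 for SDF2L1 to -0.84 for DNAJC3.

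The 3 sensors differed in direction. EIF2AK3, which encodes PERK (probe set 11722152_s_at), measured 6.41 and 6.45 in MTAC-P, against 6.86 and 7.06 in PC9. Both MTAC-P arrays lay below both PC9 arrays, and the difference was -0.53 (SE 0.16, 95% interval -0.91 to -0.14, limma adjusted p = 0.172). Of the 3 probe sets of EIF2AK3, 2 were lower in MTAC-P and 1 differed by 0.05, and the mean over all 3 differed by -0.31. All but the brightest had means within 1 log2 unit of the dim value. ATF6 (11740461_a_at) measured 8.57 and 8.74 in MTAC-P, against 8.32 and 8.38 in PC9. The MTAC-P arrays lay above, and the difference was 0.30 (SE 0.16, interval -0.08 to 0.69, limma adjusted p = 0.346). All 3 probe sets of ATF6 were higher in MTAC-P, by 0.20 to 0.63. ERN1, which encodes IRE1 alpha (11741335_at), measured 4.86 and 4.46 in MTAC-P, against 4.48 and 4.58 in PC9. These ERN1 values overlap and lie within 1 log2 unit of the dim value, and the difference of 0.13 had an interval from -0.33 to 0.58.

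In the ATF4 arm, ATF4 itself, the transcription factor of this branch (11757047_x_at), measured 13.47 and 13.68 in MTAC-P, against 13.24 and 13.00 in PC9. The MTAC-P arrays lay above, by 0.46 or 1.37-fold (SE 0.17, interval 0.04 to 0.87, limma adjusted p = 0.237). ATF4 has only this probe set, and its suffix x marks, by the maker's convention, probes that can match other sequences. CHAC1, an enzyme that degrades glutathione and a target of ATF4 (11722407_a_at), measured 5.16 and 5.23 in MTAC-P, against 4.49 and 4.71 in PC9. The difference of CHAC1 was 0.59 or 1.51-fold (SE 0.16, interval 0.20 to 0.99, limma adjusted p = 0.148), with no overlap. Its other probe set differed by 0.03, with a mean within 1 log2 unit of the dim value. The levels of CHAC1 in PC9 also lay within 1 log2 unit of the dim value. DDIT3, which encodes the pro-apoptotic factor CHOP (11758198_s_at), measured 5.34 and 5.26 in MTAC-P, against 5.43 and 5.07 in PC9. The DDIT3 arrays overlapped, and the difference of 0.06 had an interval from -0.38 to 0.49.

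The other genes of this arm varied more between the arrays of a line. TRIB3, a pseudokinase that inhibits AKT, differed by 0.48 with no overlap, and by 0.14 without MTAC-P replicate 2. Its second probe set differed by -0.004. PPP1R15A, which encodes the GADD34 subunit that restores translation by dephosphorylating eIF2 alpha, differed by 0.54 with overlapping arrays, and by 0.09 without PC9 replicate 2. ATF3, a stress-induced factor, measured 6.30 and 5.87 in MTAC-P, against 7.18 and 4.95 in PC9, so the PC9 duplicates enclosed both MTAC-P arrays. CEBPB, a basic leucine zipper factor, measured 11.03 and 11.98 in MTAC-P, against 10.77 and 11.88 in PC9, so replicate 2 was higher in both lines by about as much. ATF3 differed between the lines by 0.01 (interval -1.56 to 1.59) and CEBPB by 0.18 (interval -0.87 to 1.23).

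**Figure D2:**
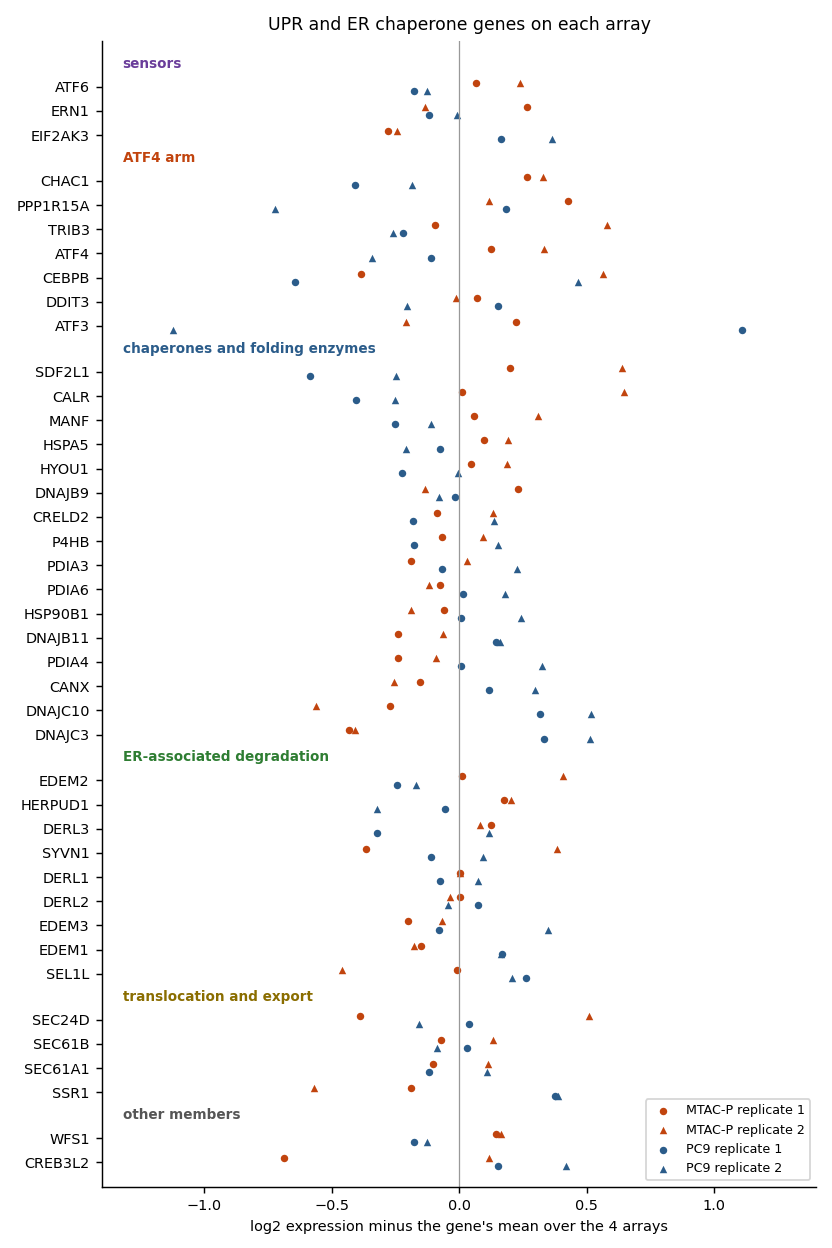
Log2 expression on each array minus the gene's mean over the 4 arrays (horizontal axis), with MTAC-P in orange above PC9 in blue, circles for replicate 1 and triangles for replicate 2. The arrays of the lines are apart for DNAJC3, DNAJC10, EIF2AK3 and CHAC1, while ATF3 spreads most between the PC9 arrays and CEBPB follows the replicate number in both lines.

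Among the luminal chaperones, the 2 best known ones differed in opposite directions. HSPA5, which encodes the Hsp70 chaperone BiP (11758169_s_at), measured 12.00 and 12.09 in MTAC-P, against 11.83 and 11.69 in PC9. The HSPA5 arrays did not overlap, and the difference was 0.28 (SE 0.16, interval -0.09 to 0.66, limma adjusted p = 0.370). All 6 probe sets of HSPA5 were higher in MTAC-P, by 0.28 to 0.90, and their mean differed by 0.70 (SE 0.14, limma adjusted p = 0.156), so the brightest probe set gave the smallest difference. HSP90B1, which encodes the Hsp90 chaperone GRP94 (11741913_s_at), measured 12.77 and 12.64 in MTAC-P, against 12.83 and 13.07 in PC9. The HSP90B1 arrays did not overlap, and the difference was -0.25 (SE 0.17, interval -0.65 to 0.16, limma adjusted p = 0.458). All 7 probe sets of HSP90B1 were lower in MTAC-P, by -0.25 to -0.61, and their mean differed by -0.43 (SE 0.16, limma adjusted p = 0.231). Probe sets of 1 gene share the same 4 RNA samples and are not replicates.

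The Hsp40 partners of BiP lay mostly lower in MTAC-P. DNAJC3, an ER Hsp40 also known as an inhibitor of eIF2 alpha kinases (11717374_at), measured 6.48 and 6.50 in MTAC-P, against 7.24 and 7.42 in PC9. Every MTAC-P array lay below every PC9 array, by -0.84 or 1.79-fold lower (SE 0.16, interval -1.22 to -0.46, limma adjusted p = 0.111). The other 2 probe sets of DNAJC3 differed by only -0.07 and -0.14, and the mean of the 3 by -0.35. Those 2 had means within 1 log2 unit of the dim value. DNAJC10, an Hsp40 that reduces disulfides of ERAD substrates (11720046_x_at), measured 8.20 and 7.90 in MTAC-P, against 8.78 and 8.98 in PC9. The difference of DNAJC10 was -0.83 or 1.78-fold lower (SE 0.18, interval -1.27 to -0.40, limma adjusted p = 0.117). All 5 of its probe sets above the dim value were lower, by -0.56 to -1.04. DNAJB11, a soluble Hsp40 of the lumen, differed by -0.30 with no overlap, and DNAJB9, which binds IRE1 and BiP, by 0.10 with overlap.

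SDF2L1, which sits in a complex with DNAJB11 and holds substrates for BiP, had the largest positive difference (11718591_at). It measured 10.01 and 10.45 in MTAC-P, against 9.23 and 9.57 in PC9, with no overlap. The difference of SDF2L1 was 0.83 or 1.78-fold (SE 0.22, interval 0.32 to 1.35, limma adjusted p = 0.137) on its only probe set. SDF2L1, ATF4 and CRELD2 lie on chromosome 22, where the median difference of 256 tested genes was 0.25 and 81.2% were higher in MTAC-P. The part of this shift in their differences was not tested. The nucleotide exchange factor HYOU1 differed by 0.23 with no overlap, and its 9 probe sets ran from -0.26 to 0.65. The probe set at -0.26 had a mean within 1 log2 unit of the dim value. MANF, a secreted stabiliser of BiP complexes, differed by 0.36 with no overlap, and CRELD2, a secreted disulfide isomerase, by 0.04 with overlap.

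The lectin chaperones of the calnexin cycle also parted. CALR, which encodes the soluble lectin calreticulin (11715374_a_at), measured 7.90 and 8.54 in MTAC-P, against 7.48 and 7.64 in PC9. The MTAC-P arrays lay above, by 0.66 or 1.58-fold (SE 0.24, interval 0.09 to 1.23, limma adjusted p = 0.218). The difference of CALR was 0.34 without MTAC-P replicate 2, and its second probe set differed by 0.41. CALR lies on chromosome 19, where the median difference of 926 tested genes was 0.13 and 69.1% were higher in MTAC-P. The part of this shift in the difference of CALR was not tested. CANX, which encodes the membrane lectin calnexin (11741127_s_at), measured 12.84 and 12.74 in MTAC-P, against 13.11 and 13.29 in PC9. The MTAC-P arrays lay below, by -0.41 or 1.33-fold lower (SE 0.16, interval -0.80 to -0.02, limma adjusted p = 0.245). Of the 9 probe sets of CANX, 8 were lower and 1 higher, and their mean differed by -0.20.

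The disulfide isomerases differed little. PDIA4 (-0.33) and PDIA6 (-0.20) lay lower in MTAC-P with no overlap. PDIA3, the partner of calnexin and calreticulin, differed by -0.16 and P4HB, the classical protein disulfide isomerase, by 0.03, both with overlap. Of the 3 probe sets of PDIA6, 1 was higher, by 0.07, and their mean differed by -0.07. All 3 probe sets of PDIA4 and both of PDIA3 were lower, whereas all 6 of P4HB were higher, by 0.03 to 0.35.

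**Figure D3:**
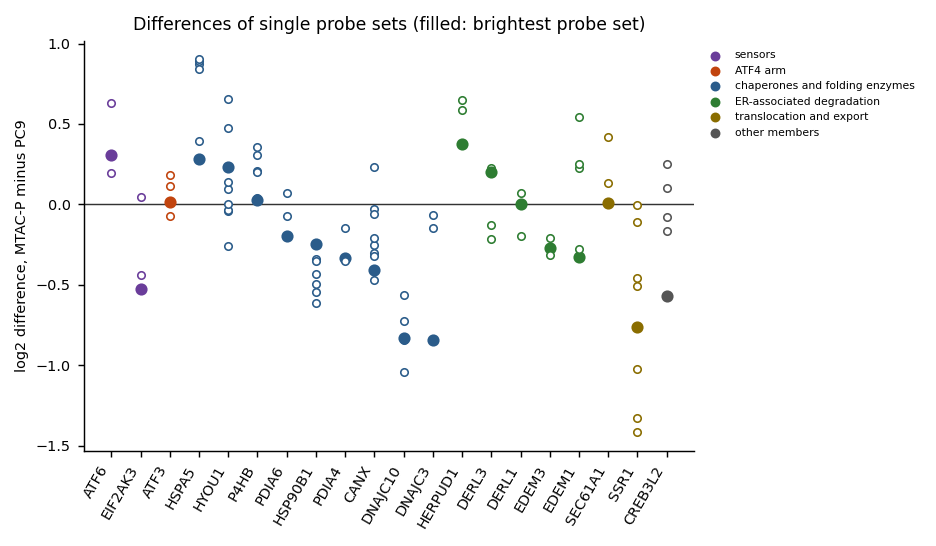
Log2 difference (MTAC-P minus PC9, vertical axis) of each probe set above the dim value for genes with at least 3 of them, the brightest probe set of each gene being filled. All 6 points of HSPA5 lie above 0 and all 7 of HSP90B1 below it, while the 5 of EDEM1 fall on both sides.

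In ERAD, HERPUD1, a membrane protein that gathers the retrotranslocation complex (11749257_a_at), measured 8.89 and 8.91 in MTAC-P, against 8.66 and 8.39 in PC9. The HERPUD1 arrays did not overlap, and the difference was 0.38 (SE 0.17, interval -0.03 to 0.78, limma adjusted p = 0.289). All 3 of its probe sets above the dim value were higher, by 0.38 to 0.65. SEL1L and SYVN1 encode the adaptor and the ubiquitin ligase of the main ERAD complex. SEL1L differed by -0.47 with no overlap on its brightest probe set and by 0.13 on another. SYVN1 differed by 0.02 with overlap on its brightest probe set and by 0.64 on its other. That other probe set of SYVN1 had a mean of 4.73, within 1 log2 unit of the dim value. The EDEM proteins trim mannose from misfolded glycoproteins, and their genes did not share a direction. EDEM2 differed by 0.41 and EDEM1 by -0.33, each with no overlap, and EDEM3 by -0.27 with overlap. For EDEM1, 3 of 5 probe sets were higher in MTAC-P, by up to 0.55, and the mean of all 5 differed by 0.08. The Derlin genes, whose products form part of the retrotranslocation channel, overlapped between the lines, with DERL1 at 0.003, DERL2 at -0.03 and DERL3 at 0.20. None of the 9 ERAD genes had an unadjusted limma p under 0.05 on its brightest probe set, beside 18.9% of all genes. With all probe sets averaged, HERPUD1 at 0.46 and SYVN1 at 0.33 were under that p, with limma adjusted p of 0.201 and 0.233.

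At the translocon, SSR1, the alpha subunit of the translocon-associated protein complex (11717051_s_at), measured 10.62 and 10.24 in MTAC-P, against 11.19 and 11.20 in PC9. The MTAC-P arrays lay below, by -0.76 or 1.70-fold lower (SE 0.18, interval -1.21 to -0.32, limma adjusted p = 0.129). All 8 probe sets of SSR1 were lower, by -0.003 to -1.42. The channel subunit SEC61A1 differed by 0.01 on its brightest probe set and by up to 0.42 on its other 2, with a mean of 0.19. SEC61B, another channel subunit, differed by 0.06, and SEC24D, a cargo adaptor of COPII vesicles, by 0.12, and all 3 genes overlapped on their brightest probe sets. Of the remaining genes, WFS1, a membrane protein of the ER linked to calcium balance, differed by 0.31 with no overlap. CREB3L2, an ER-anchored transcription factor related to ATF6, differed by -0.57 with no overlap, and by -0.17 without MTAC-P replicate 1. The mean of the 7 probe sets of CREB3L2 differed by -0.003. All but the brightest of them had means within 1 log2 unit of the dim value, so this average holds mostly dim values.

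Of the 30 genes with more than 1 probe set above the dim value, 19 had all of them on the same side of 0 and 11 had some on the other side. The difference between the lines was larger than the gap between duplicates in both lines for 22 of the 41 genes. Duplicates were at least 1.5-fold apart for 6 of the genes in MTAC-P and for 3 in PC9. The shares of all genes under these rules were not counted, so the counts only describe the 41.

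The differences went with gene length. Genes were split by length into 4 classes of near-equal size. The length used is that of the gene in the RefSeq table of GRCh38.p14, which holds a value for all 41 genes and for 14948 of the tested ones. Of the 41, 14 fall in the shortest class (up to 10051 bases), and all 14 had a higher mean in MTAC-P, with a median of 0.24. Among all tested genes of that class 65.9% were higher, with a median of 0.10. In the longest class (67448 bases and more), 3 of 7 genes of the family were higher, with a median of -0.53, beside 40.5% and -0.08 for all genes. Spearman's rho between length and difference was -0.62 over the 41 genes and -0.23 over all genes, where genes share the same 4 arrays and are not independent. The same rho over all genes was 0.11 for the gap between MTAC-P duplicates and -0.02 for PC9 duplicates. Over the 41 genes it was 0.23 for MTAC-P duplicates and -0.007 for PC9 duplicates. With the trend of all genes removed, an alternative chosen after seeing the data, rho was -0.48 over the 41, and 10 of the 14 shortest genes were higher. What the length trend adds to each difference was not tested further. All of ATF4, CHAC1, PPP1R15A, DDIT3 and CEBPB lie in the shortest class, so branch and length are entangled in the ATF4 arm.

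**Figure D4:**
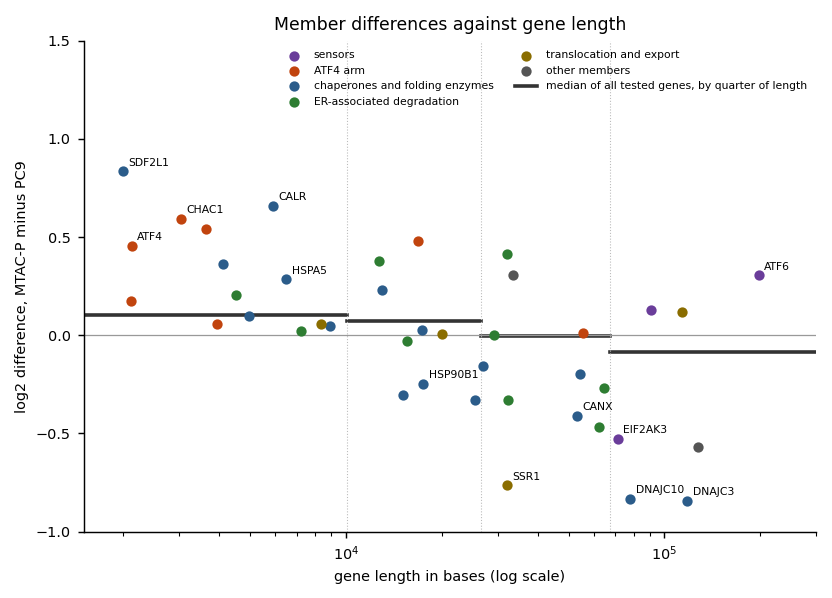
Log2 difference (MTAC-P minus PC9, vertical axis) of the 41 genes against gene length in bases (horizontal log axis), coloured by branch, with black bars for the median of all tested genes in each of 4 classes of length. Genes up to 10051 bases long all lie above 0, and ATF6, the longest at 197751 bases, lies at 0.30.

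The rest of the pathway, 124 further genes listed by role, gave 119 tested genes. The median difference of these was 0.06, and 68 were higher in MTAC-P. None passed limma's adjusted threshold, while 32 (26.9%) had an unadjusted p under 0.05, beside 18.9% of all genes. Of these, 11 were higher, beside 7.76% of all genes, and 21 lower, beside 11.1%. XBP1, the transcription factor spliced by IRE1, had the largest difference, with 10.19 and 10.67 in MTAC-P, against 8.84 and 8.82 in PC9. The difference of XBP1 was 1.60 (SE 0.20, limma adjusted p = 0.0971), its promoter window holds an ERSE match, and it too lies on chromosome 22. The spliced form of XBP1 was not measured separately here. Of the other factors of this group, NFYB, a subunit of the CCAAT-binding factor that ATF6 works with, differed by -0.68 and MBTPS2, the second protease that cuts ATF6, by -0.64.

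Of 19 further ATF4 targets 13 were higher, with a median of 0.19. The serine synthesis enzyme PHGDH differed by 1.14 and asparagine synthetase ASNS by 1.01, while the cystine transporter SLC7A11 differed by -0.93 and the factor CEBPG by -0.62. Of 7 genes of eIF2 kinases and translation control 2 were higher, with a median of -0.24, and the adaptor NCK1 differed by -0.42 and the Hsp40 gene DNAJC2 by -0.43. Among 21 further oxidoreductases and ER chaperones 13 were higher, with a median of 0.10. In that group SIL1, the exchange factor of BiP, differed by 0.40, the glycoprotein folding sensor UGGT2 by -1.01 and the thioredoxin-like TMX1 by -0.79. In N-glycan processing the median of 11 genes was 0.06, with the glucosidase MOGS at 0.59 and the oligosaccharyltransferase subunit STT3B at -0.65.

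Further ERAD machinery had 11 of 17 genes higher and a median of 0.10. UFD1, a cofactor of the VCP segregase, differed by 0.66 and the ubiquitin-conjugating enzyme UBE2J1 by 0.44 (-0.10 with all its probe sets averaged), while FAM8A1, which helps assemble the SYVN1 complex, differed by -0.83 and the lectin ERLEC1 by -0.69. Of 14 genes of translocation and signal peptide removal 6 were higher, with a median of -0.05. The other subunit genes of the complex of SSR1 stood at 0.72 for SSR2, 0.23 for SSR3 and -0.05 for SSR4. TRAM1, which helps chains into the membrane, differed by -1.11 and SEC62 by -0.70. In ER to Golgi transport 8 of 17 genes were higher, with a median of -0.10, the COPII coat gene SEC24C at 0.41, the SNARE gene BET1 at -0.65 and the cargo receptor TMED10 at -0.47. All of these single genes missed the adjusted threshold in the fit without a replicate block.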

How the data were processed

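The authors deposited 1 table of log2 expression values for 49386 probe sets on 4 arrays. The log2 scale was read from the values, and the background correction, normalization and summarization are not given in the sources used here. Agilent Feature Extraction 10.7 is named in the submitters' processing notes, and per the labels' protocols a one-colour Agilent kit labelled the RNA, although the probe-set names follow Affymetrix conventions. How these fit together is not settled here. Array medians ran from 4.85 to 4.88, so no further scaling was applied.

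Probe sets with 1 symbol in GEO's platform annotation (45253) were kept, symbols were updated by gene ID to GRCh38.p14, and the brightest probe set stood for each gene. Genes below the 25th percentile of probe-set means (4.14, the dim value) were left out. MTAC-P was set against PC9 in limma 3.58.1 under R 4.3.3 (lmFit, then eBayes, 2-sided), and Benjamini-Hochberg adjustment ran over the 14970 genes. SE is limma's moderated standard error and intervals are 95%. An exact 2-sided permutation test of 2 against 2 arrays cannot go below p = 0.333. Whether the duplicates were separate cultures is not stated. The p-values set each difference against the spread between arrays of a line, which may be technical. limma draws part of that spread from all tested genes, and the number of arrays limits the precision. The fit was tested on simulated data with 200 changed genes. There, 26.1% of genes changed by 1 log2 unit passed the adjusted threshold, and 95.7% of those changed by 2. Wrong calls numbered 9.1 per simulation. A gene that missed the threshold may therefore still differ.

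The 41 genes, their branches and the pathway list were chosen with earlier results of these data known. Values on every array are given for the 3 sensors, HSPA5, HSP90B1, ATF4, DDIT3, HERPUD1 and each gene of the 41 with an unadjusted p under 0.05, and also, chosen after their values were seen, for ATF3 and CEBPB. From the pathway list, XBP1 and up to 2 higher and 2 lower genes per group with an unadjusted p under 0.05 are named, and SSR3 and SSR4 were added after their values were seen. Alternatives tried were a replicate block, median centring, quantile normalization, other dim filters, the mean of all probe sets, a variance trend, leaving out each array and, added after seeing the data, removal of the gene length trend.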

Additional observations from a re-analysis of the deposited data

How the results depend on the processing

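Of the 12 alternatives, 8 can move a gene's difference. Under these, 26 of the 41 genes kept their sign and 15 changed it under at least 1. The replicate number as a block gave 2079 of all 14970 genes past the threshold, where the fit without it gave 3. Of the 41, 7 passed with the block (DNAJC3, SDF2L1, DNAJC10, SSR1, CALR, CHAC1 and CREB3L2), and 14 had an unadjusted limma p under 0.05. The share of all genes under that p was not counted with the block, nor with all probe sets averaged. Both counts under it only describe the 41. Of the 24 named genes of the rest of the pathway, 18 passed with the block, XBP1 among them. All 24 had an unadjusted limma p under 0.05 in these same arrays, and most were named for it. This count is therefore not a result about the pathway. The gaps between duplicates correlated at 0.28 between the lines over all genes, so arrays of the same number deviated together in part. The block was not used because nothing in the labels pairs arrays by number and there are only 2 pairs. All genes past the threshold numbered 77 with a variance trend, 1 with the dim filter at the 50th percentile, 0 when every probe set of a gene was averaged (where 14 of the 41 had an unadjusted p under 0.05) and 0 to 68 without 1 array, the highest without PC9 replicate 1. The number of the 41 genes past the threshold was 0 in each of these settings.

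Without 1 array, the median difference ran -0.044 to 0.11 for the 41 genes, -0.072 to 0.22 for the sensors, -0.21 to 0.028 for the chaperones, -0.070 to 0.076 for ERAD, -0.21 to 0.14 for translocation and export, -0.34 to 0.075 for WFS1 with CREB3L2, 0.016 to 0.060 for the other pathway genes and 0.23 to 0.56 for the ATF4 arm. With the dim filter at the 50th percentile ERN1 was left out, and the median of the remaining sensors, ATF6 and EIF2AK3, was -0.11. With the gene length trend removed, chosen after seeing the data, the difference (or median) was -0.0070 for the 41 genes, -0.060 for ERAD, -0.014 for translocation and export, -0.027 for DDIT3, -0.029 for CRELD2, -0.0070 for P4HB, -0.060 for SYVN1, -0.011 for SEC61A1, -0.017 for SEC61B. With the average of all probe sets the difference (or median) was 0.026 for the chaperones, 0.15 for WFS1 with CREB3L2, 0.022 for the other pathway genes, 0.083 for EDEM1, -0.042 for DERL1, -0.0057 for SEC24D, -0.10 for UBE2J1. With median centring the difference (or median) was -0.0075 for ERAD, -0.0075 for DERL1, -0.0019 for SEC61A1. Single genes that changed sign without 1 array ran -0.072 to 0.33 for ERN1, -0.12 to 0.23 for DDIT3, -1.10 to 1.13 for ATF3, -0.38 to 0.73 for CEBPB, -0.085 to 0.28 for DNAJB9, -0.11 to 0.20 for CRELD2, -0.14 to 0.19 for P4HB, -0.35 to 0.39 for SYVN1, -0.070 to 0.076 for DERL1, -0.090 to 0.029 for DERL2, -0.015 to 0.42 for DERL3, -0.10 to 0.12 for SEC61A1, -0.044 to 0.16 for SEC61B, -0.33 to 0.57 for SEC24D. For the sensors under the dim filter at the 50th percentile only the set of genes changed. The cause was not tested in any of the other cases.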

Other observations

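Chaperones outside the ER were listed after results of these data were known. Of 21 cytosolic chaperone genes 9 were higher in MTAC-P, beside 53.8% of all genes, with a median difference of -0.04 and a range of -0.31 (HSPA4) to 0.35 (STIP1), and none had an unadjusted limma p under 0.05, beside 18.9% of all genes. Of 12 mitochondrial chaperone and protease genes 7 were higher, with a median of 0.11. HSPE1, the mitochondrial Hsp10, differed by -0.45 and DNAJA3, a mitochondrial Hsp40, by 0.52, each with an unadjusted p under 0.05 and neither past the adjusted threshold in limma.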
